A study of Mus musculus with 34 samples.

Results

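Mast cells and basophils are rare granule-bearing cells of the bone marrow lineage that bind immunoglobulin E (IgE) through a high-affinity surface receptor and release histamine and proteases. Their precursors depend on the transcription factor Gata2 and, in the mast cell lineage, on the growth factor receptor Kit. Cultures grown from whole marrow with M-CSF, the macrophage growth factor, are meant to hold macrophages, so transcripts of these cells are a minor component there. The 8 genes described here, Prss34, Mcpt8, Cpa3, Hdc, Ms4a2, Fcer1a, Kit and Gata2, were chosen by symbol, and each matched 1 row of the 52550 genes of the main count table and 1 row of the 25498 genes of the batch 1 table.

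RNA was sequenced from macrophages that had been derived from the marrow of 10- to 14-week-old mice. The marrow was kept in M-CSF at 10 ng/ml over 6 days, then came a rest of 24 h and a further 24 h with low-density lipoprotein (LDL) at 200 mg/dL or with vehicle. The main set held 24 libraries, 3 each of Jak2VF (a mutant Jak2 allele beside a WT allele), Dnmt3aKO (Dnmt3a fl/fl), Tet2KO (Tet2 fl/fl) and WT cells, with LDL and with vehicle. All 4 genotypes carried Vav-Cre, a recombinase driven by a promoter active across blood cells, so the WT cells carried it too. This promoter is not particular to macrophages, and recombination of the alleles was not measured here. Batch 1, a set that the labels name so, held Tet2KO and WT libraries, 2 each with LDL and 3 each with vehicle, and no Jak2VF cells. The labels do not say whether replicates came from separate mice, and p-values therefore measure the spread between these libraries, which may be technical.

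Main-set libraries held 24105237 to 43904761 counts, and batch 1 libraries held 15171143 to 44449473. Levels are given as CPM, each gene's share of its library's counts after TMM scaling, which sets library sizes by the trimmed mean of gene ratios, so that 3 counts in a group of 3 main-set libraries correspond to between 0.0249 and 0.0319 CPM. Dnmt3a was at 27.6 to 36.6 CPM in the Dnmt3aKO libraries, against 37.8 to 71.2 CPM in the other main-set libraries. Tet2, counted over the whole gene, was at 19.3 to 40.4 CPM in Tet2KO libraries, against 12.9 to 42.4 CPM in the others, and did not check that label. With vehicle, Jak2 was at 54.5 to 68.2 CPM in Jak2VF libraries. It was at 78.6 to 91.6 CPM in WT, 84.7 to 95.5 in Tet2KO and 110 to 120 in Dnmt3aKO. With LDL the values were 64.1 to 74.7, 71.2 to 97.6, 80.1 to 116 and 113 to 145 CPM in the same order. Gene counts do not read the allele, so they did not check the Jak2VF label. The astrocyte gene Gfap had 83 counts in WT LDL replicate 3 and 112 in Tet2KO LDL replicate 3, against 4 to 18 in the other 22 main-set libraries, and LDL results that change without those 2 libraries are named where they occur. Macrophage genes were abundant throughout, with the summed level of 9 of them between 19020 and 33400 CPM, and the cultures also held collagen-rich stromal transcripts, with the summed level of 10 stromal genes between 8258 and 17110 CPM.

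Counts were low. Over the 24 main-set libraries Hdc, Mcpt8, Kit and Gata2 had 13 to 532 counts per library, whereas Prss34 had at most 130, Cpa3 32, Ms4a2 26 and Fcer1a 12. In the main set 7 of the 8 passed the filter of at least 10 counts in at least 3 libraries, and 6 of them were tested with the edgeR quasi-likelihood test. Ms4a2 passed only through the 3 Jak2VF vehicle libraries, so it had to be high there. It is left out of every count of called genes, and it and Fcer1a, which did not pass, are given by their counts and by a fit without the filter. In these bulk samples a gene at a lower level can reflect fewer cells of a type or less RNA per cell, which cannot be told apart. Per kilobase of exon, the level in Jak2VF vehicle cells was 5.41 CPM per kb for Mcpt8, 1.92 for Prss34, 1.14 for Hdc, 0.474 for Cpa3, 0.280 for Kit, 0.278 for Gata2, 0.244 for Fcer1a and 0.169 for Ms4a2.

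With vehicle, 4 of the 6 tested genes, Prss34, Cpa3, Mcpt8 and Hdc, were higher and 1, Kit, was lower in Jak2VF cells than in the mean of the other 3 genotypes. Across all 19444 tested genes, 9.36% were higher and 9.78% were lower in this comparison. With LDL the same 4 genes were higher and 0 were lower, against 6.52% of all tested genes higher and 5.91% lower. The median log2 difference of the 6 genes was 0.91 with LDL and 1.16 with vehicle, while that of all tested genes was -0.0023 with LDL and 0.01 with vehicle. The 4 higher genes encode granule proteases and the histamine-forming enzyme, while Kit and Gata2, which act in the precursors of these cells, did not share their pattern. In the vehicle libraries the 3 Jak2VF values of Prss34 and Cpa3 lay above all 9 values of the other genotypes. Of all tested genes 4.61% showed this separation. With LDL it held for Prss34, against 3.41% of all tested genes. Ms4a2 at both treatments and Fcer1a with vehicle also lay above, but are not set against these shares. Ms4a2 passed the filter only through Jak2VF vehicle libraries, and Fcer1a did not pass it. For other separations of libraries named below, the share of all tested genes was not counted.

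**Figure D1:**
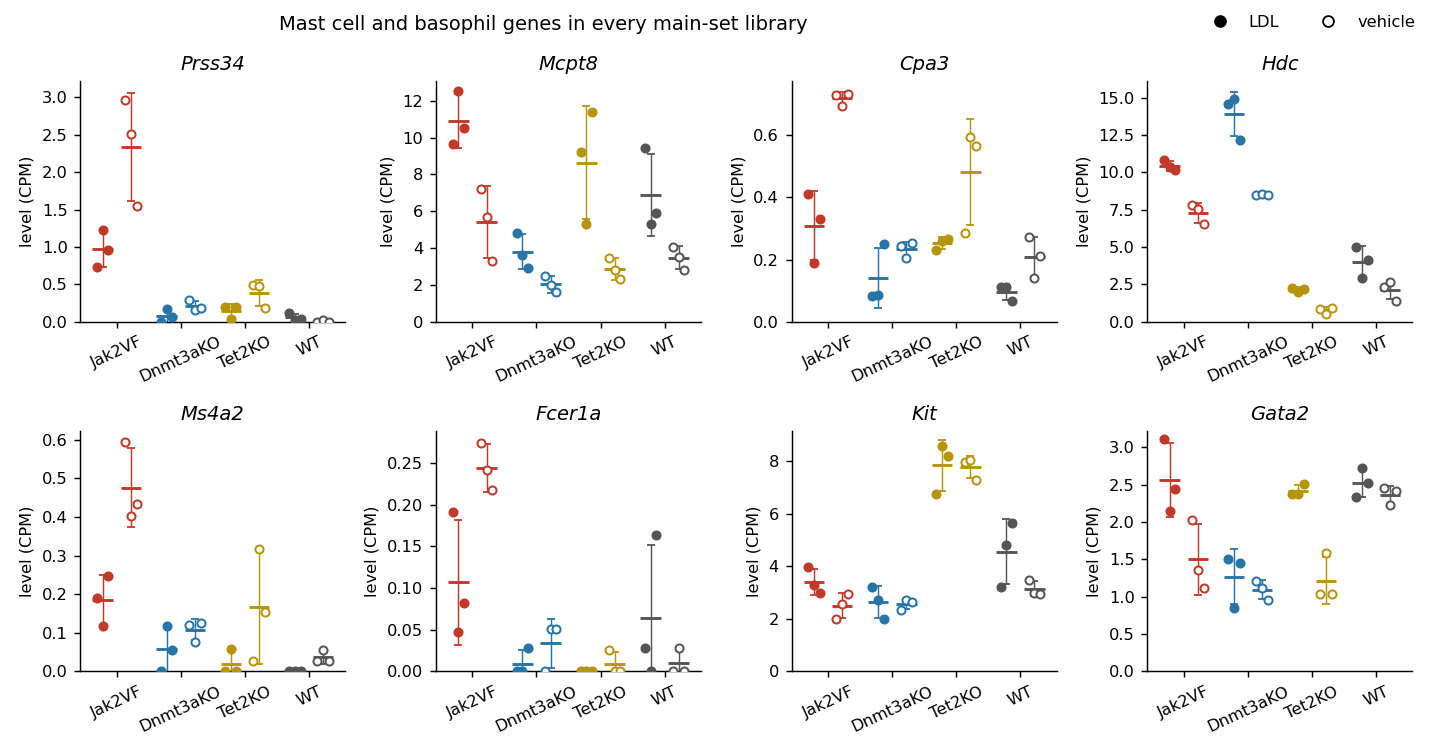
Levels of the 8 genes in the 24 main-set libraries, in CPM on a linear axis that starts at 0, with filled points for LDL, open points for vehicle, and a line and bar for the mean and SD of 3 libraries (bars cut at 0). Jak2VF vehicle libraries are the highest of all for Prss34, Cpa3, Ms4a2 and Fcer1a, whereas Hdc is also high in Dnmt3aKO and Kit is highest in Tet2KO.

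Prss34 (ENSMUSG00000056399, GRCm38 chr17:25298394-25300165, plus strand) encodes a serine protease of mouse basophils and had the largest difference among the 6 tested genes. Its counts were 130, 94 and 57 in the 3 Jak2VF vehicle libraries, against 12, 6 and 7 in Dnmt3aKO, 19, 12 and 7 in Tet2KO and 0, 1 and 0 in WT. All Jak2VF values lay above the others, and the WT libraries held 1 count in all. The level was 2.34 ± 0.72 CPM in Jak2VF, 0.382 ± 0.175 in Tet2KO, 0.207 ± 0.074 in Dnmt3aKO and 0.0094 ± 0.0163 in WT cells (SD, n = 3 each), and the Tet2KO and Dnmt3aKO libraries overlapped. Summed counts gave a Jak2VF level 11.5-fold that of Dnmt3aKO (95% interval of counting error 7.6 to 17.99) and 6.44-fold that of Tet2KO (4.58 to 9.29). Against the single WT count the ratio was 262, with an interval of 46.7 to 10390. The difference from the mean of the other 3 genotypes had an adjusted p of 5.34e-08 by edgeR (1.21e-05 against Dnmt3aKO, 0.000269 against Tet2KO and 1.21e-06 against WT alone), and its fitted log2 size of 4.56 ± 0.38 (SE) leans on the WT group with 1 count, so the ratio to the 9 other libraries pooled, 12.4 (9.42 to 16.5), describes the size better. Intervals of ratios and the 3-count floor cover counting error only.

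With LDL, Prss34 counts were 27, 52 and 35 in Jak2VF, against 0, 6 and 2 in Dnmt3aKO, 7, 1 and 5 in Tet2KO and 4, 1 and 1 in WT cells. Jak2VF libraries again lay above all 9 others, and the other 3 genotypes overlapped. Prss34 was higher in Jak2VF than in each genotype by edgeR, with an adjusted p of 0.000193 against Dnmt3aKO, 0.00188 against Tet2KO and 0.00034 against WT, and the pooled ratio was 10.7 (6.97 to 16.9).

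Cpa3 (ENSMUSG00000001865, chr3:20215620-20242181, minus strand) encodes carboxypeptidase A3, a metalloprotease stored in mast cell granules and also made by basophils and their progenitors. With vehicle it had 32, 26 and 27 counts in Jak2VF, 10, 8 and 10 in Dnmt3aKO, 11, 15 and 22 in Tet2KO and 10, 5 and 8 in WT libraries. The 3 Jak2VF values were close together, at 0.719 ± 0.021 CPM (SD, n = 3), and above the highest other value, a Tet2KO library at 0.595 CPM. The pooled log2 difference was 1.33 ± 0.25 (SE, adjusted p = 0.000862, edgeR). By single genotype, Cpa3 was higher in Jak2VF than in Dnmt3aKO (log2 1.61 ± 0.33, adjusted p = 0.00144) and than in WT (1.77 ± 0.34, adjusted p = 0.00197), while the difference from Tet2KO was 0.60 ± 0.31 with an adjusted p of 0.174.

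With LDL, Cpa3 had 15, 8 and 12 counts in Jak2VF, 2, 3 and 9 in Dnmt3aKO, 8, 9 and 7 in Tet2KO and 4, 4 and 2 in WT libraries. The Jak2VF range overlapped those of Dnmt3aKO and Tet2KO. The pooled log2 difference was 0.98 ± 0.32 at an adjusted p of 0.0488, and that call was lost when any of 10 libraries was left out, with an adjusted p of up to 0.325 without Jak2VF LDL replicate 1. The call against WT (log2 1.62 ± 0.44, adjusted p = 0.0255) was lost without WT replicate 1 or 3 or Jak2VF replicate 1 or 3, where the adjusted p lay between 0.0808 and 0.124. The pooled call was lost with DESeq2 as well (adjusted p = 0.078). Both calls were also lost in a fit without the count filter (adjusted p = 0.159 and 0.053) and without the 2 libraries with many Gfap counts (adjusted p = 0.0822 and 0.0924).

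The 2 IgE receptor chains had the fewest counts. Ms4a2 (ENSMUSG00000024680, chr19:11615523-11623719, minus strand) encodes the signal-amplifying beta chain, and Fcer1a (ENSMUSG00000005339, chr1:173221284-173227214, minus strand) encodes the alpha chain that binds IgE. With vehicle, Ms4a2 had 26, 15 and 16 counts in Jak2VF, 5, 3 and 5 in Dnmt3aKO, 1, 8 and 6 in Tet2KO and 1, 2 and 1 in WT libraries. Jak2VF lay above the others, and the ratio of Jak2VF to the 9 pooled libraries was 5.03 (3.21 to 8.01). A fit without the count filter, chosen after values had been seen, holds every gene with any count. Its p-values, at both treatments, are therefore not comparable with those of the 6 tested genes. In it the pooled log2 difference was 2.45 ± 0.45 (SE, adjusted p = 3.47e-05, edgeR), with an adjusted p of 0.0088 against Dnmt3aKO, 0.0549 against Tet2KO and 0.000184 against WT. Fcer1a had 12, 9 and 8 counts in Jak2VF, against 0, 2 and 2 in Dnmt3aKO, 1, 0 and 0 in Tet2KO and 0, 1 and 0 in WT libraries. Its pooled ratio was 13.6 (5.57 to 40.2), from 29 counts in 3 Jak2VF libraries and 6 counts in the 9 others, and the fit without the count filter gave an adjusted p of 4.56e-05 (edgeR).

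With LDL, Ms4a2 had 7, 5 and 9 counts in Jak2VF, 0, 4 and 2 in Dnmt3aKO, 0, 2 and 0 in Tet2KO and 0 in each WT library. The lowest Jak2VF value, 0.118 CPM, was just above the highest other value, 0.116 CPM. The pooled ratio was 6.64 (2.83 to 17.3). Against the WT group, which had 0 counts, the exact 95% interval put the level at least 4.63-fold higher in Jak2VF, and with WT taken at 3 counts over its 3 libraries the ratio was 6.23. Without the count filter the pooled adjusted p was 0.000417, that against WT 0.00129, that against Dnmt3aKO 0.367 and that against Tet2KO 0.0602 (edgeR). Fcer1a had 7, 2 and 3 counts in Jak2VF, 0, 0 and 1 in Dnmt3aKO, 0 in each Tet2KO library and 1, 0 and 5 in WT libraries, and the 5 counts came from WT replicate 3, a library with many Gfap counts. Its Jak2VF and WT ranges overlapped, and the pooled ratio was 4.34 (1.58 to 13.0). Other IgE receptor signalling genes, which macrophages also express, did not go with these chains: of 11 tested with vehicle 1 was higher in Jak2VF and 7 were lower, and with LDL 0 were higher and 5 were lower. This count and those of the lists that follow stand against 9.36% of all tested genes higher and 9.78% lower with vehicle, and 6.52% higher and 5.91% lower with LDL. Lower with vehicle were the kinases Btk (log2 -0.33 ± 0.05, adjusted p = 4.39e-05), Syk (-0.38 ± 0.06, adjusted p = 0.000119) and Lyn (-0.31 ± 0.05, adjusted p = 0.000362) and the phospholipase Plcg2 (-0.37 ± 0.07, adjusted p = 0.000503).

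Because Prss34, Cpa3, Ms4a2 and Fcer1a had their highest counts in the same Jak2VF vehicle libraries, the 250 bases before their RefSeq starts (GRCm38.p6) are shown, with matches to AGATAA or TGATAA on either strand, letters that GATA factors such as Gata1 and Gata2 can bind, in capitals. They are printed 5′ to 3′ on the strand of the gene, from chr17:25298144-25298393 (plus) for Prss34, chr3:20242182-20242431 (minus) for Cpa3, chr19:11623720-11623969 (minus) for Ms4a2 and chr1:173227230-173227479 (minus) for Fcer1a.
Prss34: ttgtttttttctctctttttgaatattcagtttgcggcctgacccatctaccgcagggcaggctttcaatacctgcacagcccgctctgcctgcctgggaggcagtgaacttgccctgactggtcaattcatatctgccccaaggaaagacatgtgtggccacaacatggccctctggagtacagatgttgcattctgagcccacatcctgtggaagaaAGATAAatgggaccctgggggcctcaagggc
Cpa3: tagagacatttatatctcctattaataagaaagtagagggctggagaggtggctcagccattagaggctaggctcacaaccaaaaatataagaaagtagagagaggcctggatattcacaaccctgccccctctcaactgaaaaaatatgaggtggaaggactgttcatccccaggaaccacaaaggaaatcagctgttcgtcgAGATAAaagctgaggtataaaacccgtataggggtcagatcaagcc
Ms4a2: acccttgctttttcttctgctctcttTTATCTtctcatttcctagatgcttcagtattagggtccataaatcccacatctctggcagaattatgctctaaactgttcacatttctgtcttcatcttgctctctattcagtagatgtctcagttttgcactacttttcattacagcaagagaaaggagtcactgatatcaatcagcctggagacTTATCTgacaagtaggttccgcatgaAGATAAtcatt
Fcer1a: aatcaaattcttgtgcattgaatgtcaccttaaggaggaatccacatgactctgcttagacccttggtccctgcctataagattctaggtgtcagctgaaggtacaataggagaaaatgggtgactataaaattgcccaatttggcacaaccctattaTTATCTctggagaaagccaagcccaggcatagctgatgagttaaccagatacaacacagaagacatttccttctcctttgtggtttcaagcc
The match began 31 bases before the start in Prss34, 46 in Cpa3 and 92 in Fcer1a, and Ms4a2 held 3 matches at 224, 37 and 11 bases. For Fcer1a the bases after this start were not found in an annotated transcript of the gene, so its distance is less certain. All 8 genes had a window in the table, and those of Hdc, Mcpt8, Kit and Gata2 held no match to the letters searched. The Hdc window holds TGATAG, which differs from TGATAA in its last letter and was not searched. The printed windows were chosen for the high Jak2VF vehicle counts of their genes. Whether matches differ between these genes and the rest was not tested. Of all 32851 windows of this length, 16.6% held the motif. The E-box letters CACGTG or CATGTG were in the windows of Prss34 and Fcer1a and in 17.6% of all windows, and the STAT5 letters TTCNNNGAA were in 0 of the 8 genes' windows and in 7.02% of all windows, both strands read. These matches describe letters and were not tested as binding sites.

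Mcpt8 (ENSMUSG00000022157, chr14:56082166-56085273, minus strand) encodes mast cell protease 8, a granule protease used as a marker of mouse basophils. With vehicle its counts were 316, 212 and 122 in Jak2VF, 102, 79 and 63 in Dnmt3aKO, 134, 71 and 89 in Tet2KO and 149, 125 and 108 in WT libraries. The lowest Jak2VF library, at 3.31 CPM, fell within the WT range of 2.83 to 4.07 CPM. The pooled log2 difference was 0.99 ± 0.23 (SE, adjusted p = 0.00488, edgeR). It became 0.74 at an adjusted p of 0.0897 without Jak2VF vehicle replicate 1. By genotype, Mcpt8 was higher in Jak2VF than in Dnmt3aKO (1.42 ± 0.31, adjusted p = 0.00224) and than in Tet2KO (0.92 ± 0.30, adjusted p = 0.0431), and the difference from WT was 0.64 ± 0.29 with an adjusted p of 0.201. The Tet2KO call was lost without any 1 of 5 vehicle libraries, Tet2KO replicates 1 to 3 and Jak2VF replicates 1 and 2, at adjusted p-values between 0.0653 and 0.242.

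With LDL, Mcpt8 counts were 354, 532 and 384 in Jak2VF, 115, 125 and 105 in Dnmt3aKO, 318, 183 and 300 in Tet2KO and 340, 193 and 180 in WT libraries. Jak2VF lay above Dnmt3aKO and WT and overlapped Tet2KO. The pooled log2 difference was 0.85 ± 0.22 (adjusted p = 0.0129), with adjusted p-values of 0.0806 without Jak2VF LDL replicate 2 and 0.0512 without replicate 3. Among the genotypes taken singly it passed the test against Dnmt3aKO alone (1.54 ± 0.29, adjusted p = 0.000709).

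Hdc (ENSMUSG00000027360, chr2:126593667-126619299, minus strand) encodes histidine decarboxylase, the enzyme that makes histamine, which neutrophils and their precursors also express. Its counts with vehicle were 342, 283 and 241 in Jak2VF, 352, 336 and 337 in Dnmt3aKO, 33, 13 and 35 in Tet2KO and 86, 95 and 54 in WT libraries. Jak2VF and Dnmt3aKO libraries lay above those of WT, and Tet2KO libraries below them. The level was 7.30 ± 0.67 CPM in Jak2VF, 8.52 ± 0.04 in Dnmt3aKO, 0.756 ± 0.210 in Tet2KO and 2.15 ± 0.66 in WT cells (SD, n = 3 each). The log2 difference of Jak2VF was 3.23 ± 0.22 from Tet2KO (adjusted p = 2.29e-09), 1.77 ± 0.19 from WT (adjusted p = 5.61e-06) and -0.22 ± 0.18 from Dnmt3aKO (adjusted p = 0.411), all by edgeR. The pooled difference of 1.59 ± 0.15 (adjusted p = 2.56e-07) therefore averages genotypes on both sides.

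With LDL the counts were 396, 439 and 369 in Jak2VF, 349, 513 and 437 in Dnmt3aKO, 79, 68 and 57 in Tet2KO and 181, 106 and 126 in WT libraries. The level was 10.4 ± 0.3 CPM in Jak2VF, 13.9 ± 1.5 in Dnmt3aKO, 2.14 ± 0.16 in Tet2KO and 4.03 ± 1.06 in WT cells (SD, n = 3 each), with the genotypes in the same order as with vehicle. Jak2VF was higher than WT (log2 1.37 ± 0.18, adjusted p = 8.25e-05) and than Tet2KO (2.28 ± 0.20, adjusted p = 1.29e-07), and its difference from Dnmt3aKO was -0.41 ± 0.17 with an adjusted p of 0.125.

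The 10 listed neutrophil genes differed between the genotypes in the order of Hdc. Their summed level with LDL was 461 to 507 CPM in Jak2VF, 829 to 914 in Dnmt3aKO, 183 to 214 in Tet2KO and 303 to 387 in WT libraries. With vehicle it was 565 to 749 CPM in Jak2VF, 713 to 766 in Dnmt3aKO, 78.2 to 113 in Tet2KO and 203 to 268 in WT libraries. Of these 10 genes 8 were higher and 1 was lower in Jak2VF with vehicle than in the mean of the other genotypes, with a median log2 difference of 1.78, and with LDL 7 were higher and 1 was lower. The granule protein genes Ltf (1.81 ± 0.09, adjusted p = 5.43e-11) and Ngp (1.88 ± 0.12, adjusted p = 1.26e-09), the calcium-binding S100a9 (1.96 ± 0.13, adjusted p = 2.41e-09) and Retnlg (2.23 ± 0.17, adjusted p = 1.69e-08) were among the higher. Mmp8, the collagenase of neutrophils, was the 1 lower gene (-0.59 ± 0.10 with LDL, adjusted p = 0.00043, and -0.30 ± 0.10 with vehicle, adjusted p = 0.0412). It gave 30.1% of the sum in Jak2VF, 48.0% in Dnmt3aKO, 75.5% in Tet2KO and 49.7% in WT libraries with LDL, and 7.03%, 13.9%, 55.7% and 15.4% in the same genotypes with vehicle. Without Mmp8 the sum in Jak2VF was 308 to 364 CPM with LDL and 522 to 695 CPM with vehicle, while Hdc was higher with LDL, so Hdc and the sum of the other 9 genes went apart between the treatments. In Dnmt3aKO as well, the sum without Mmp8 was 432 to 478 CPM with LDL and 612 to 660 CPM with vehicle. Across the 24 libraries the log2 level of Hdc and the log2 summed level of this list had a Pearson r of 0.956 with Mmp8 and 0.867 without it, over points that share genotype and treatment. Without Mmp8 r was 0.966 over the 12 LDL libraries and 0.976 over the 12 vehicle libraries. With the same list Kit had r = -0.843, Cpa3 -0.164, Ms4a2 0.244, Prss34 0.207 and Mcpt8 0.013. The part of neutrophil-lineage RNA in the Hdc result was not tested.

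**Figure D2:**
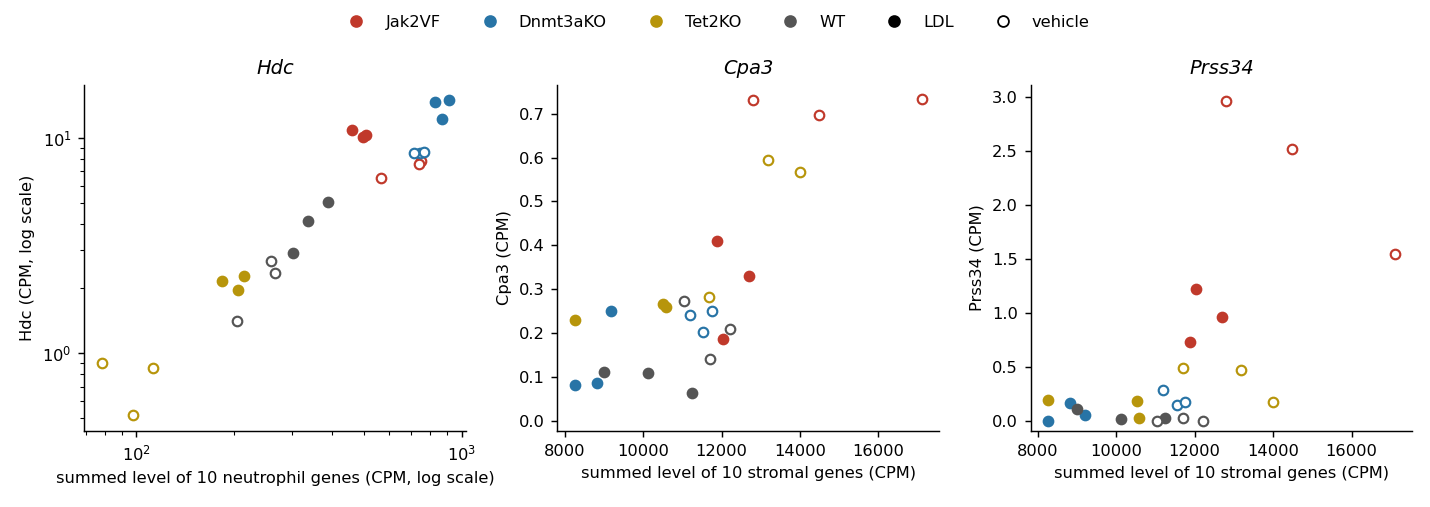
Each point is a main-set library, filled for LDL and open for vehicle, with Hdc against the summed level of 10 neutrophil genes (log axes) and Cpa3 and Prss34 against the summed level of 10 stromal genes (linear axes), all in CPM. Hdc is ordered by genotype like the neutrophil genes (r = 0.956), but in Jak2VF it is higher with LDL, where the summed neutrophil level is lower, and the Jak2VF vehicle libraries are highest for Cpa3 and Prss34.

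The 10 stromal genes, a list written after values had been seen with collagen and other fibroblast genes such as Col1a1, Dcn and Thy1, moved with Cpa3 and Ms4a2. Their summed level with LDL was 11890 to 12700 CPM in Jak2VF, against 8258 to 11250 CPM in the others. With vehicle it was 12810 to 17110 CPM in Jak2VF, 11200 to 11760 in Dnmt3aKO, 11690 to 14000 in Tet2KO and 11050 to 12220 in WT libraries. With vehicle 6 of the 10 genes were higher in Jak2VF and 0 were lower, with a median log2 difference of 0.31, and with LDL 7 were higher and 0 were lower. Across the 24 libraries r with the summed level was 0.740 for Cpa3, 0.730 for Ms4a2 and 0.586 for Prss34, and -0.194 for Hdc and -0.206 for Mcpt8. Ms4a2 passed the filter only through Jak2VF vehicle libraries, where these sums were also high, so its r was partly set in advance. Because the list was written after values had been seen, the r of Cpa3 and of Prss34 is not independent of these data either. All points share genotype and treatment. The part of the stromal genes in the results was not tested.

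Kit (ENSMUSG00000005672, chr5:75574916-75656722, plus strand) encodes the receptor for stem cell factor, which mast cells keep and most other blood cells lose as they mature. Among the single genotypes its difference from Jak2VF passed the test for Tet2KO, where Kit was highest. Its counts with vehicle were 87, 96 and 108 in Jak2VF, 97, 106 and 105 in Dnmt3aKO, 309, 203 and 283 in Tet2KO and 128, 106 and 113 in WT libraries. Tet2KO libraries lay above all others. The level was 2.49 ± 0.48 CPM in Jak2VF, 2.56 ± 0.19 in Dnmt3aKO, 7.77 ± 0.42 in Tet2KO and 3.15 ± 0.30 in WT cells (SD, n = 3 each), and Jak2VF and Dnmt3aKO libraries overlapped. The log2 difference of Jak2VF was -1.64 ± 0.19 from Tet2KO (adjusted p = 6.47e-06, edgeR), -0.34 ± 0.20 from WT (adjusted p = 0.329) and -0.04 ± 0.20 from Dnmt3aKO (adjusted p = 0.900). The pooled value of -0.68 ± 0.16 (adjusted p = 0.00642) lost its call without Jak2VF vehicle replicate 1 (-0.52, adjusted p = 0.0904).

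With LDL, Kit had 145, 139 and 109 counts in Jak2VF, 77, 94 and 71 in Dnmt3aKO, 233, 296 and 216 in Tet2KO and 115, 175 and 173 in WT libraries. It was lower in Jak2VF than in Tet2KO (log2 -1.20 ± 0.19, adjusted p = 0.000248), with a difference of -0.42 ± 0.19 from WT (adjusted p = 0.150) and 0.38 ± 0.20 from Dnmt3aKO (adjusted p = 0.242). The pooled difference of -0.41 ± 0.16 had an adjusted p of 0.0979, and passed the test without WT LDL replicate 1 (-0.49, adjusted p = 0.0259) or Dnmt3aKO LDL replicate 3 (-0.48, adjusted p = 0.0477). Kitl, the gene of the Kit ligand, was lower in Jak2VF than in the mean of the other genotypes with vehicle (-0.67 ± 0.15, adjusted p = 0.00371).

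Gata2 (ENSMUSG00000015053, chr6:88193891-88207032, plus strand), the transcription factor gene, did not pass the test between Jak2VF and the mean of the rest. Its counts with vehicle were 89, 51 and 41 in Jak2VF, 50, 44 and 38 in Dnmt3aKO, 40 in each Tet2KO library and 90, 79 and 92 in WT libraries. WT libraries were the highest and the other 3 genotypes overlapped. The pooled log2 difference was 0.05 ± 0.18 (adjusted p = 0.861, edgeR), and it changed sign to -0.22 without Jak2VF vehicle replicate 1. With LDL the counts were 114, 91 and 89 in Jak2VF, 36, 29 and 52 in Dnmt3aKO, 82, 82 and 66 in Tet2KO and 84, 99 and 77 in WT libraries. Gata2 was then higher in Jak2VF than in Dnmt3aKO (1.03 ± 0.23, adjusted p = 0.00266), and the pooled difference was 0.38 ± 0.17 with an adjusted p of 0.173.

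Counted by single genotype with vehicle, 3 of the 6 tested genes were called against Dnmt3aKO (19.2% of all tested genes), 4 against Tet2KO (15.5%) and 3 against WT (9.55%). With LDL the counts were 3 against Dnmt3aKO (15.6%), 3 against Tet2KO (6.1%) and 3 against WT (9.97%). Prss34 was higher in Jak2VF in all 6 of these comparisons, Hdc in 4, Cpa3 in 3, Mcpt8 in 3 and Gata2 in 1, and Kit was lower in 2. These comparisons share the Jak2VF libraries, so the counts are not independent.

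**Figure D3:**
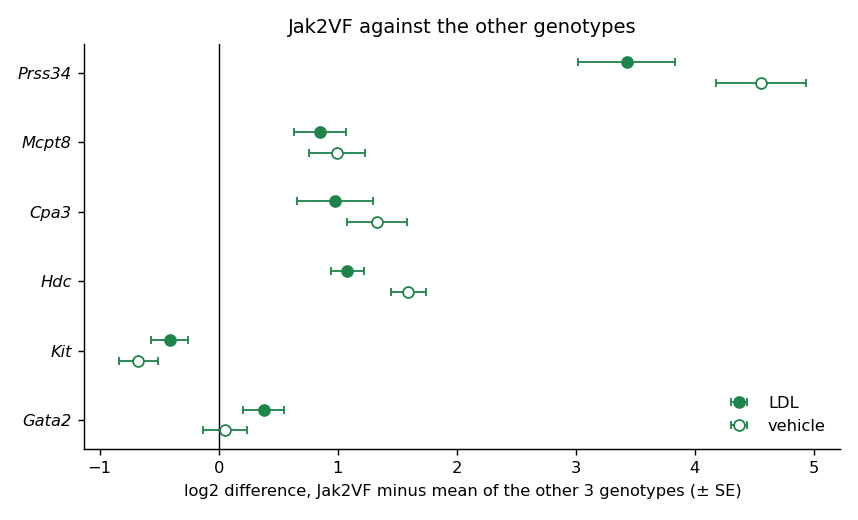
Log2 difference of Jak2VF from the mean of the other 3 genotypes for the 6 tested genes, with filled points for LDL, open points for vehicle and bars for the SE. Prss34 stands highest with vehicle at 4.56, Kit lies below 0 at both treatments, and Gata2 lies at 0.05 with vehicle.

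The other genotypes also differed from WT in some of these genes. With vehicle, Dnmt3aKO was called in 3 of 6 (11.1% of all tested genes), with Hdc higher (1.99 ± 0.19, adjusted p = 4.04e-07), Prss34 higher (25 counts in 3 libraries against 1, adjusted p = 0.0127) and Gata2 lower (-1.11 ± 0.23, adjusted p = 0.00175). The Prss34 call was lost without WT replicate 1 or 3 or Dnmt3aKO replicate 1, at adjusted p-values of 0.0545 to 0.0643. Tet2KO was called in 4 of 6 (5.47%), with Kit higher (1.30 ± 0.19, adjusted p = 0.000123), Prss34 higher (38 counts against 1, adjusted p = 0.00251), Hdc lower (-1.46 ± 0.24, adjusted p = 0.000397) and Gata2 lower (-0.99 ± 0.23, adjusted p = 0.0102). That Gata2 call was lost without Tet2KO replicate 1 or 3 (adjusted p = 0.0682 and 0.0653). All tests were by edgeR, and the comparisons of Dnmt3aKO and Tet2KO with WT in the main set were added after values had been seen.

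With LDL, Dnmt3aKO was called against WT in 4 of 6 (17.5%), with Hdc higher and Gata2, Kit and Mcpt8 lower, and the Kit and Mcpt8 calls were lost without WT replicate 3 or Dnmt3aKO replicate 3. The Mcpt8 call (-0.88 ± 0.30, adjusted p = 0.0459) was lost without WT replicate 1 or Dnmt3aKO replicate 2 as well, at adjusted p-values of up to 0.272, and without both libraries with many Gfap counts the count was 2. Tet2KO was called in 2 of 6 (2.76%), Kit higher (0.78 ± 0.19, adjusted p = 0.0197) and Hdc lower (-0.91 ± 0.20, adjusted p = 0.0121), and both calls were lost without WT replicate 1 or without Tet2KO replicate 2. Without Tet2KO replicate 3, the library with the most Gfap counts, the Kit call was lost as well (adjusted p = 0.0624), and without both libraries with many Gfap counts the Hdc call was lost (adjusted p = 0.11).

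LDL, a cholesterol load on the macrophages, was followed by opposite changes among these genes in Jak2VF cells. Of the 6 tested genes, 3 were higher with LDL than with vehicle, against 8.45% of all tested genes, and 2 were lower, against 9.73%. Mcpt8 was higher (log2 1.01 ± 0.28, adjusted p = 0.0158), as were Gata2 (0.76 ± 0.22, adjusted p = 0.0182) and Hdc (0.51 ± 0.18, adjusted p = 0.0476). Prss34 averaged 0.974 ± 0.244 CPM with LDL and 2.34 ± 0.72 CPM with vehicle (SD, n = 3 each; log2 -1.26 ± 0.37, adjusted p = 0.0226), and Cpa3 averaged 0.309 ± 0.112 CPM with LDL and 0.719 ± 0.021 CPM with vehicle (-1.23 ± 0.32, adjusted p = 0.0104). Ms4a2 had 21 counts with LDL and 57 with vehicle, and Fcer1a had 12 with LDL and 29 with vehicle. In a fit without the count filter neither was called between the treatments (adjusted p = 0.115 for Ms4a2 and 0.453 for Fcer1a, edgeR). In Jak2VF the LDL libraries of Prss34, Cpa3, Ms4a2 and Fcer1a lay below the vehicle libraries without overlap. Those of Hdc, Mcpt8, Kit and Gata2 lay above them without overlap. The share of all tested genes that separated in either direction was not counted, so these separations only describe the libraries. Ms4a2 had passed the filter only through the vehicle libraries, so it had to be high there. Several calls of the 6 tested genes did not hold when single libraries were left out. The Hdc call was lost without any 1 of the 6 Jak2VF libraries, Prss34 without 4 of them (vehicle replicates 1 and 2, LDL replicates 1 and 3), Gata2 without 3 (vehicle replicates 2 and 3, LDL replicate 1), Mcpt8 without 2 (vehicle replicate 3, LDL replicate 2) and Cpa3 without LDL replicate 2 (adjusted p = 0.0519), each keeping its direction.

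In the other genotypes 1 to 3 of the genes were called between LDL and vehicle. Hdc was higher in Dnmt3aKO (0.70 ± 0.18, adjusted p = 0.00695), the single call among 6 there (15.4% of all tested genes). In Tet2KO Mcpt8 (1.59 ± 0.30, adjusted p = 0.000708), Hdc (1.46 ± 0.24, adjusted p = 0.000152) and Gata2 (1.02 ± 0.23, adjusted p = 0.00349) were higher, 3 of 6 (16.8%). In WT Mcpt8 (0.99 ± 0.29, adjusted p = 0.0262) and Hdc (0.91 ± 0.20, adjusted p = 0.00264) were higher, 2 of 6 (14.2%), and the Mcpt8 call was lost without WT vehicle replicate 2 or 3 or WT LDL replicate 1. Cpa3 passed the test in none of these 3, at log2 -0.65 ± 0.43 in Dnmt3aKO (adjusted p = 0.399), -0.90 ± 0.36 in Tet2KO (adjusted p = 0.0981) and -1.08 ± 0.47 in WT (adjusted p = 0.152), so the call of Cpa3 in Jak2VF is not shown to differ from them. Prss34 was not called there either, at -1.27 ± 0.72 in Dnmt3aKO (adjusted p = 0.29), -1.43 ± 0.61 in Tet2KO (adjusted p = 0.121) and 2.30 ± 1.37 in WT (adjusted p = 0.301). The summed counts of Ms4a2 with LDL and with vehicle were 6 and 13 in Dnmt3aKO, 2 and 15 in Tet2KO and 0 and 4 in WT. Those of Fcer1a were 1 and 4, 0 and 1, and 6 and 1 in the same order. The difference between the LDL effect in Jak2VF and the mean LDL effect of the other 3 genotypes was called for 0 of the 6 genes by edgeR and by DESeq2 (0.108% of all tested genes by edgeR). By edgeR 1 of 6, Hdc, had an unadjusted p under 0.05 (log2 -0.51 ± 0.21, adjusted p = 0.196), as had 4330 of all 19444 tested genes.

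Of the 14 mast cell granule genes 8 were at or near 0. Cma1, Mcpt4, Mcpt2, Tpsb2, Tpsab1, Tpsg1, Mrgprb1 and Mrgprb2 did not pass the count filter and had 0 to 6 counts in the 3 Jak2VF vehicle libraries together, and each was at 0 in 12 to 20 of the 24 libraries. Mcpt1, a chymase of mucosal mast cells, was present, with 141 counts in the Jak2VF vehicle libraries, as was Mcpt9, with 33, and both were at 0 in 0 libraries. Of the 6 tested genes of this list with vehicle, 3 were higher in Jak2VF and 1 was lower, with a median log2 difference of 0.50. Higher were Ctsg (1.09 ± 0.16, adjusted p = 0.000105), which neutrophil precursors also make, Mcpt1 (1.02 ± 0.27, adjusted p = 0.0114) and the vesicular monoamine transporter gene Slc18a2 (0.56 ± 0.16, adjusted p = 0.0171), and lower was Ndst2 (-0.28 ± 0.07, adjusted p = 0.00524), an enzyme of heparin synthesis. With LDL 1 of the 6, Ctsg, was higher and 0 were lower. The summed level of the 14 genes, 213 to 270 CPM in Jak2VF vehicle libraries, against 286 to 298 in Dnmt3aKO, 231 to 265 in Tet2KO and 222 to 287 in WT libraries, came mostly from Srgn and Ndst2, which macrophages express.

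Other genes listed for basophils did not follow Prss34 as a group. Of 7 tested with vehicle, Cd200r3, an activating receptor of basophils and mast cells, was higher in Jak2VF (1.05 ± 0.24 with LDL, adjusted p = 0.00486, and 0.71 ± 0.21 with vehicle, adjusted p = 0.0228). The shared cytokine receptor chains Csf2rb (-0.33 ± 0.06, adjusted p = 0.0012) and Csf2rb2 (-0.35 ± 0.07, adjusted p = 0.00125), close paralogs that may share reads, and Il18rap (-0.33 ± 0.09, adjusted p = 0.0124) were lower. In Jak2VF vehicle cells they averaged 195, 140 and 9.89 CPM, against 0.693 CPM for Cd200r3. Which cells these transcripts came from was not tested. With LDL 1 of 7 was higher and 2 were lower. Il13, Ptgdr2 and Slc22a3 did not pass the count filter, with 3, 10 and 7 counts in the Jak2VF vehicle libraries and 3, 13 and 15 in those of WT. The summed level of the 10 genes was 354 to 385 CPM in Jak2VF vehicle libraries, against 518 to 553 in Dnmt3aKO, 469 to 612 in Tet2KO and 324 to 338 in WT libraries, most of it from the Csf2rb pair. Of the eosinophil genes, listed since eosinophils share the marrow lineage, Epx had 9, Prg2 28 and Prg3 4 counts in the Jak2VF vehicle libraries, and of 4 tested 0 were higher and Ccr3 was lower (-0.49 ± 0.07, adjusted p = 5.2e-05). With LDL Il5ra, with 2 counts in Jak2VF, 39 in Dnmt3aKO, 31 in Tet2KO and 7 in WT libraries, was lower as well (adjusted p = 0.00229).

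Of 10 transcription factors of the lineage 2 were higher and 4 were lower in Jak2VF with vehicle, and 1 was higher and 4 were lower with LDL. Gata1, which works with Gata2 in mast cells, basophils, megakaryocytes and red cells, was higher with vehicle (1.62 ± 0.30, adjusted p = 0.000642) at 1.01 CPM, against 0.555 in Dnmt3aKO, 0.398 in Tet2KO and 0.155 in WT. Mitf, the mast cell and pigment cell factor that macrophages also express, was lower (-0.55 ± 0.10, adjusted p = 0.000654), as were Lmo2 (-0.48 ± 0.10, adjusted p = 0.00212) and Tal1 (-0.39 ± 0.07, adjusted p = 0.00101). Of 11 genes of Kit and cytokine receptor signalling 3 were higher and 3 were lower with vehicle, and 3 were higher and 1 was lower with LDL. Il1rl1, the receptor of interleukin 33 on mast cells and basophils, was higher at both treatments (1.12 ± 0.11 with LDL, adjusted p = 4.6e-07, and 0.67 ± 0.11 with vehicle, adjusted p = 0.000222). Csf3r, the receptor of the neutrophil growth factor, was lower with vehicle (-0.40 ± 0.09, adjusted p = 0.00231). Of 9 tested mediator genes 1 was higher and 2 were lower with vehicle, and 1 was higher and 1 was lower with LDL. Il6 was higher (1.15 ± 0.15, adjusted p = 1.68e-05), the prostaglandin D2 synthase Hpgds (-0.52 ± 0.13, adjusted p = 0.00739) and the leukotriene pathway gene Alox5ap (-0.33 ± 0.10, adjusted p = 0.0332) were lower with vehicle, and Osm was lower with LDL (-0.31 ± 0.08, adjusted p = 0.0152).

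In the lists of neighbouring lineages the calls went in both directions. Of 10 megakaryocyte genes 4 were higher in Jak2VF with LDL and 7 with vehicle, and 0 were lower at either treatment, with median log2 differences of 0.37 with LDL and 0.63 with vehicle. Itga2b (1.21 ± 0.15, adjusted p = 1.07e-05), Gp9 (1.64 ± 0.20, adjusted p = 1.26e-05), Ppbp (0.67 ± 0.10, adjusted p = 0.000132) and Itgb3 (0.48 ± 0.11, adjusted p = 0.00385) were among them. The summed level of the list was 627 to 1001 CPM in Jak2VF, 580 to 660 in Dnmt3aKO, 811 to 933 in Tet2KO and 653 to 953 in WT vehicle libraries, and its r over the 24 libraries was 0.773 with Mcpt8 and 0.652 with Gata2. Pf4, which was not called, gave 78.2 to 89.4% of that sum in each group, and without it r was 0.816 with Mcpt8 and 0.594 with Gata2. Of 10 stem and progenitor genes 4 were higher and 1 was lower with vehicle, with Cd34 (0.52 ± 0.08, adjusted p = 0.000124), Hoxa9 (0.38 ± 0.09, adjusted p = 0.00355) and Mycn (1.45 ± 0.33, adjusted p = 0.00378) higher, and 2 were higher with LDL. Of 6 tested erythroid genes 2 were higher, Hba-a1 and Hba-a2, near-identical copies that may share reads, and Epor was lower (-0.78 ± 0.18, adjusted p = 0.00531). With LDL 0 of 6 were called by edgeR and 2 had an unadjusted p under 0.05, as had 4946 of all 19444 tested genes. Of 9 macrophage genes 0 were higher and 4 were lower, and with LDL 0 were higher and 5 were lower. Lower with vehicle were Adgre1 (-0.65 ± 0.06, adjusted p = 8.33e-08), Csf1r (-0.41 ± 0.06, adjusted p = 5.87e-05) and Mertk (-0.41 ± 0.11, adjusted p = 0.0135). Their part in the results for the 8 genes was not tested.

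Across the 24 libraries the 7 genes that passed the filter did not share a single pattern. The Pearson r of log2 levels was 0.799 for Ms4a2 and Prss34, 0.790 for Cpa3 and Ms4a2 and 0.702 for Cpa3 and Prss34. It was 0.702 for Gata2 and Mcpt8, 0.286 for Mcpt8 and Prss34, both basophil proteases, and -0.762 for Kit and Hdc. After each group's mean was taken away, r was 0.1 for Ms4a2 and Prss34, 0.439 for Cpa3 and Ms4a2, -0.198 for Cpa3 and Prss34 and 0.565 for Mcpt8 and Prss34. The genes most alike the mean of the 7 were Hoxc8 (r = 0.920), Slc12a1 (0.899), Capn11 (0.895), Nectin3 (0.884), Lrig3 (0.870), Morn4 (0.866), Lhfp (0.858), Sbsn (0.857), Gja4 (0.854) and Hspb8 (0.845). Ms4a2, which passed the filter only through Jak2VF vehicle libraries, is part of that mean. The likeness to genes high in Jak2VF, and every r of Ms4a2, was therefore partly set in advance. In the 18 libraries without Jak2VF the r of Hoxc8 was 0.801 and that of Nectin3 0.371. Taken singly, Hdc was most like Mcemp1 (0.945) and S100a8 (0.943), Mcpt8 most like Ilf2 (0.963), Kit most like Il2rb (0.919), Prss34 most like Penk (0.891), Ms4a2 most like Enpp1 (0.840), Cpa3 most like Pde5a and Cd34 (0.829 each) and Gata2 most like Ubqln4 (0.815). All points share genotypes and treatments, and these values describe the libraries only.

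Batch 1 gave Tet2KO and WT cells a further time, and the levels of several genes differed between the tables. The tables were scaled apart, so levels are set side by side without a test. Prss34 had 12, 19 and 9 counts in Tet2KO and 15, 12 and 22 in WT vehicle libraries of batch 1, or 0.486 ± 0.219 and 0.853 ± 0.230 CPM (SD, n = 3 each), whereas the WT vehicle libraries of the main set held 1 count together. Cpa3 was at 0.648 ± 0.404 CPM in Tet2KO and 0.755 ± 0.102 CPM in WT vehicle libraries of batch 1, against 0.482 ± 0.172 and 0.208 ± 0.066 CPM in those of the main set, and the WT level of batch 1 was near the 0.719 CPM of Jak2VF in the main set. Kit was at 0.797 ± 0.196 CPM in Tet2KO and 0.699 ± 0.189 CPM in WT vehicle libraries of batch 1, against 7.77 and 3.15 CPM in the main set. Gata2 was at 2.34 CPM in both genotypes. Ms4a2 had 3, 6 and 3 counts in Tet2KO and 2, 1 and 7 in WT vehicle libraries of batch 1. Fcer1a had 2, 3 and 1 in Tet2KO and 1, 0 and 3 in WT. In a fit without the count filter neither was called there between Tet2KO and WT, with LDL or with vehicle. With vehicle the log2 difference was -0.25 ± 0.70 for Ms4a2 (SE, adjusted p = 0.967, edgeR) and 0.05 ± 0.97 for Fcer1a.

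**Figure D4:**
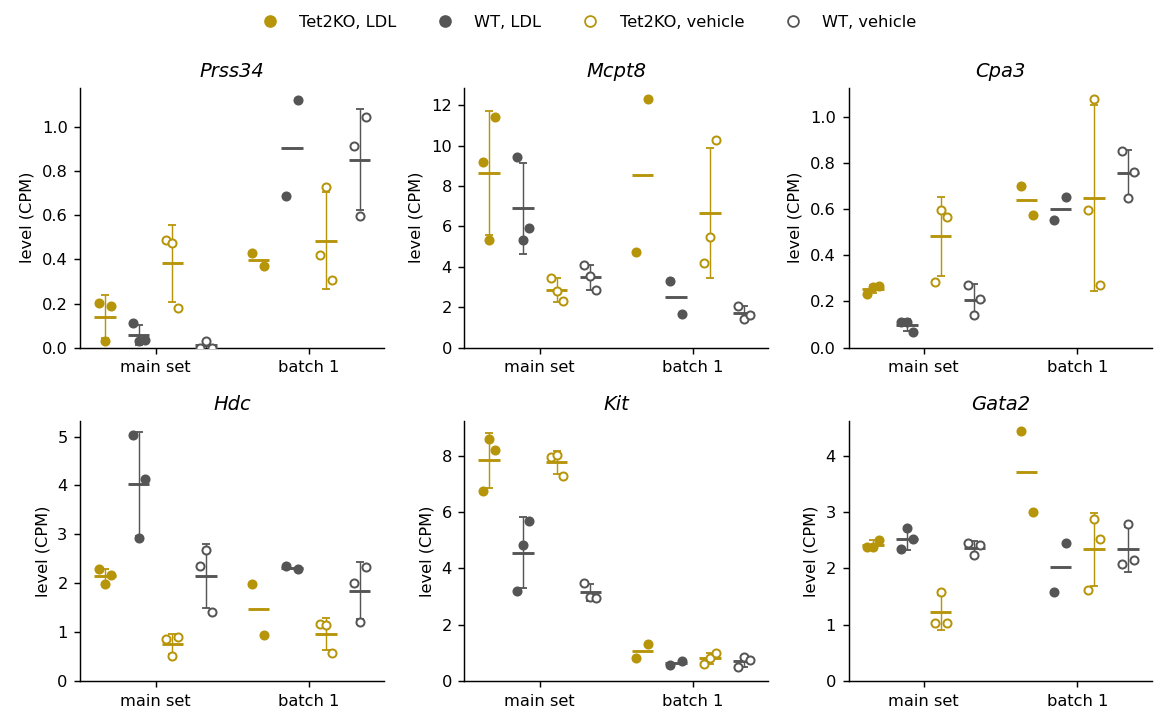
Levels in CPM of 6 of the genes in Tet2KO and WT libraries of the main set (left) and batch 1 (right), with filled points for LDL, open points for vehicle, lines for means and bars for the SD where a group has 3 libraries. WT levels of Prss34 and Cpa3 are higher, and Kit levels lower, in batch 1 than in the main set, and the tables were scaled apart.

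Within batch 1, 0 of 6 tested genes were called between Tet2KO and WT with vehicle by edgeR (1.89% of all 15481 tested genes). An unadjusted p under 0.05 was found for 2 of them and for 2163 of all tested genes, and DESeq2 called 1, Mcpt8. Mcpt8 had 120, 143 and 302 counts in Tet2KO, against 34, 28 and 34 in WT vehicle libraries, without overlap (log2 1.98 ± 0.47, adjusted p = 0.0826). In the main set the same difference was -0.28 ± 0.31 (adjusted p = 0.698), with overlapping libraries. Hdc had 33, 30 and 17 counts in Tet2KO and 33, 24 and 49 in WT (-0.94 ± 0.39, adjusted p = 0.327), and Kit differed by 0.18 ± 0.34 (adjusted p = 0.888), while both passed the test in the main set.

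With LDL 0 of 6 were called between Tet2KO and WT in batch 1 by edgeR (0.536%), and 3 had an unadjusted p under 0.05, as had 1844 of all 15481 tested genes. DESeq2 called 1, again Mcpt8, with 122 and 300 counts in Tet2KO and 48 and 74 in WT libraries. Prss34 had 11 and 9 counts in Tet2KO and 10 and 50 in WT libraries (-1.22 ± 0.49, adjusted p = 0.386). LDL against vehicle over both genotypes of batch 1 was called for 0 of 6 (0.271%), with 0 at an unadjusted p under 0.05 (1662 of all tested genes) and 0 by DESeq2. Hdc, higher with LDL in all 4 genotypes of the main set, had a log2 difference of 0.47 ± 0.30 there (adjusted p = 0.692), and Mcpt8 0.43 ± 0.36 (adjusted p = 0.802).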

How the data were processed

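Gene counts of 34 mouse libraries were deposited by the authors in 2 tables (24 main-set and 10 batch 1 libraries), as whole-number counts per gene. The deposited tables are named as normalized, but median-of-ratios size factors of their values ran from 0.673 to 1.26 and from 0.606 to 1.86 and followed the library totals (r = 0.969 and 0.994), so the values were used as counts, and another scaling by the authors cannot be told from the files. Per the submitters' processing notes mm10 was the build. Which aligner and counter were used, and whether strand was used, is not given in the sources used here. The labels' protocols name both ribosomal RNA depletion and poly-A selection. No sample column was left unused (0 of both tables).

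Each table was fitted on its own with edgeR 4.0.16 (R 4.3.3) by the quasi-likelihood test over all groups, after TMM scaling, on genes that reached 10 counts in 3 or more libraries (2 or more for batch 1). This left 19444 and 15481 genes and 99.9% of the counts in each table. Ms4a2, which met this filter only in Jak2VF libraries, was tested without the filter, a choice made after values had been seen. P-values were adjusted by Benjamini and Hochberg over all genes tested, with a threshold of 0.05. The SE is that implied by the test statistic. Ratios of summed counts have exact 95% intervals, and a group at 0 was taken at 3 counts. Levels of likeness and correlation are Pearson r of log2 CPM with a prior count of 2. The code was tested on simulated data.

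The 8 genes were given by symbol. From each further list up to 4 genes with the smallest adjusted p among those called in either pooled comparison are named, and the genes most alike by r. Filtered-out genes are named to account for the lists. Some genes of the lists are counted but not reported here by name. The genes and lists were chosen with earlier results of these data known, and the stromal list and the comparisons of Dnmt3aKO and Tet2KO with WT in the main set were added after values had been seen. Promoter sequences came from RefSeq (GRCm38.p6) and gene coordinates from the annotation of GRCm38.

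Same-numbered libraries were checked for pairing by the correlation of their deviations from group means. The title numbers paired Tet2KO with WT LDL libraries of the main set at all 3 numbers (r = 0.785, 0.788 and 0.588), and no other comparison in this way. For Jak2VF and WT vehicle libraries r was 0.696, 0.0273 and 0.724 at numbers 1 to 3, so that comparison was not treated as paired. Alternatives were DESeq2 1.42.0, other scalings, no filter, fits on the groups compared alone, a replicate block and leaving out each library.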

Additional observations from a re-analysis of the deposited data

How the results depend on the processing

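Depth limited Ms4a2 and Fcer1a most. The Jak2VF calls of Prss34 and Hdc against the mean of the other genotypes were kept in every alternative run, at both treatments. Counts are of the 6 tested genes. Where counts of called genes moved by over 1.5 times, the cause was not tested.

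With 1 library left out, the count of called genes was 3 to 5 for the pooled vehicle comparison (5 with all libraries; 3 without Jak2VF vehicle replicate 1) and 2 to 5 for the pooled LDL comparison (4 with all; 2 without Jak2VF LDL replicate 3). It was 2 to 4 for Dnmt3aKO against WT with LDL (4 with all) and 0 to 2 for Tet2KO against WT with LDL (2 with all). For LDL against vehicle it was 2 to 3 in Jak2VF (5 with all), 1 to 2 in Dnmt3aKO (1 with all) and 1 to 2 in WT (2 with all). The pooled vehicle difference of Gata2 ran from -0.22 to 0.23 and reversed without Jak2VF vehicle replicate 1.

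Fitted on the groups compared alone, the counts were 2 for Dnmt3aKO against WT with LDL, 0 for Tet2KO against WT with LDL, and for LDL against vehicle 2 in Dnmt3aKO and 1 in WT. DESeq2 called 2 for LDL in Dnmt3aKO and 1 in each Tet2KO against WT comparison of batch 1. With no filter LDL in Dnmt3aKO gave 2. Without both LDL libraries with many Gfap counts Dnmt3aKO against WT with LDL gave 2 and Tet2KO against WT with LDL gave 1.

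In the paired comparison, Tet2KO against WT with LDL, the replicate block by title number left 2 calls, also on those groups alone. Elsewhere pairing was not seen at all numbers of a comparison. There the replicate block by title number gave 2 calls for LDL in Dnmt3aKO. The replicate block by description number gave 3 for LDL in Jak2VF and 1 for Tet2KO against WT with LDL. Under the replicate block the pooled LDL call of Cpa3 had an adjusted p of 0.0511 by title number and 0.122 by description number. Of the values of single genes under all alternatives, 727 kept direction and side of the threshold, 79 lost the threshold, 2 passed it and 1 reversed, and the r of Hoxc8 was 0.801 without Jak2VF.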
